A study of Homo sapiens with 6 samples.

Results

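The miR-183/96/182 cluster is a group of miRNA hairpins cut from one primary transcript on chromosome 7. Its members were taken from the miRNA expression table by name, as hsa-miR-183-5p, hsa-miR-183-3p, hsa-miR-96-5p, hsa-miR-182-5p and hsa-miR-182-3p, and all 5 were found among the 2588 mature miRNAs listed, of which 1366 had at least 1 count. All 5 passed the filter on low counts, which left 552 miRNAs for testing. miRNAs were sequenced in Huh7 cells, an established line from a human liver cancer, that had been transfected 48 h earlier with a plasmid for the circular RNA hsa_circ_0098181 (overexpression group, 3 libraries) or with the control plasmid (control group, 3 libraries). Both groups received plasmid and Lipofectamine, a lipid reagent, so that transfection is common to them. The transfection was transient, and the level of hsa_circ_0098181 in these libraries was not analysed here. The question was which miRNAs change when this circular RNA is raised.

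The cluster is known from sensory organs, where the photoreceptors of the retina and the hair cells of the inner ear express it strongly, and it is often raised in carcinomas, those of the liver included. A mature miRNA guides Argonaute proteins to target mRNAs mainly through its seed, the bases next to its 5′ end. The 5p strands of these hairpins act as guides, and transcription factors of the FOXO family are among their known targets, whereas the 3p strands are passenger strands that are mostly degraded. Transcription of the cluster is known to be repressed by ZEB1, a factor of the epithelial to mesenchymal transition that also represses the miR-200 family.

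In GENCODE release 29 (GRCh38), the hairpins lie on the minus strand, MIR183 at chr7:129774905-129775014, MIR96 at chr7:129774692-129774769 and MIR182 at chr7:129770383-129770492. MIR183 and MIR96 are separated by 135 bases and MIR96 and MIR182 by 4199 bases, and the whole cluster spans 4632 bases. No other annotated gene overlaps the hairpins, and the nearest protein-coding genes are NRF1, which ends 13300 bases below the cluster, and UBE2H, which begins 55717 bases above it. The mature sequences, from RefSeq (GRCh38.p14), are shown 5′ to 3′ because the seeds of the guides differ in few bases, with the seed (bases 2 to 8) in capitals.
hsa-miR-183-5p: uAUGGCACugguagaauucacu
hsa-miR-96-5p: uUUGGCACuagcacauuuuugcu
hsa-miR-182-5p: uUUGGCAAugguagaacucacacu
hsa-miR-183-3p: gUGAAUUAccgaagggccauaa
hsa-miR-182-3p: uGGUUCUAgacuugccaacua

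The guide strands have 3 different seeds that share a core. Counting positions from 1 at the 5′ end, miR-183-5p and miR-96-5p differ in the seed by A2U alone, and miR-96-5p and miR-182-5p by C8A alone. Over the whole strand, compared without gaps, miR-183-5p and miR-182-5p were identical at 18 of 22 positions (A2U, C8A, U17C and U22A differ). miR-96-5p was less alike, identical to miR-183-5p at 13 of 22 positions and to miR-182-5p at 12 of 23. The GC content of the guides was 40.9% for miR-183-5p, 39.1% for miR-96-5p and 41.7% for miR-182-5p. Among the mature miRNAs from RefSeq, hsa-miR-1271-5p was the only other miRNA with a seed of the cluster, that of miR-96-5p. It shares 9 of 22 positions with miR-96-5p, again compared without gaps. The stretch uagca after the seed lies a base further along in miR-1271-5p, so that this count leaves it out.
hsa-miR-1271-5p: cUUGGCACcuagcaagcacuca

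The hairpins of MIR96 and MIR182 are printed with both mature strands in capitals, the 5p strand first, to show where the strands compared below are cut from.
MIR96: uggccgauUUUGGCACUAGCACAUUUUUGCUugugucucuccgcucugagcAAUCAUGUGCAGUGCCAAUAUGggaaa
MIR182: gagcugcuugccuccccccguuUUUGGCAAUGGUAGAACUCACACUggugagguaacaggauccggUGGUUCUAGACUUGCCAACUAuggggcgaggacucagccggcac

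The libraries held 7144798 to 10786295 counts, and the TMM factors, which correct the library sizes for composition, were 0.921 to 0.996 with overexpression and 1.00 to 1.09 in the controls. The hepatocyte miRNA miR-122-5p took 30.6% to 33.9% of the counts in every library. Control replicate 3 stood apart from the other controls. Over 152 abundant miRNAs, its median absolute log2 difference was 0.21 to control replicate 1 and 0.21 to control replicate 2, which differed from each other by 0.049. It lay nearer to the overexpression libraries (0.121 to 0.191), which the other controls were about as far from (0.128 to 0.188), while the overexpression libraries differed from each other by 0.0785 to 0.105. Results are therefore given with and without it. As it was singled out from these same data, all p-values obtained without it are descriptive only. Among the marker lists of other cell types, those of muscle and blood summed lowest and that of stroma and endothelium highest. The blood list, of which 3 of 5 members were tested and 0 called, summed to 13.3 to 14.3 TPM with overexpression and 17.0 to 19.1 TPM in the controls, with miR-451a at 36 counts and miR-142-5p at 17 counts over all libraries. With all libraries, the log2 fold change was -0.50 for miR-142-3p (adjusted p = 0.314 from edgeR), 0.45 for miR-223-3p and 0.46 for miR-150-5p. Without control replicate 3, 1 of this list was called, beside 9.91% of the 565 miRNAs then tested. It was miR-142-3p, at a log2 fold change of -0.57 (adjusted p = 0.0181 from edgeR). The values were then 0.29 for miR-223-3p and 0.75 for miR-150-5p, neither called. miR-142-3p made up most of the summed level, at 9.23 TPM with overexpression and 14.1 TPM in the controls. The muscle list (1 of 3 tested, 0 called) summed to 1.45 to 2.24 TPM and 1.68 to 2.23 TPM, with miR-133a-3p at 3 counts. The list of neuronal and retinal miRNAs (3 of 4 tested, 0 called), which covers cells where the cluster is abundant, summed to 171 to 184 TPM and 149 to 199 TPM. The list of stroma and endothelium (3 of 3 tested, 0 called) summed to 3274 to 3353 TPM and 3153 to 3257 TPM. Nearly all of it was miR-126-3p, with miR-143-3p at a mean of 86.0 TPM and miR-145-5p at 3.56 TPM. The hepatocyte list (5 of 5 tested, 0 called) summed to 366200 to 384100 TPM and 346900 to 372700 TPM. The part of these lists in the results below was not tested.

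The guide strands were abundant in Huh7 cells, with the cluster at slightly over 1% of all counts. The deposited TPM (the count over the library total, scaled to a common total, without a correction for length) of miR-182-5p was 7461, 7467 and 7339 with overexpression and 6749, 6627 and 7787 in the controls, in the order of replicates 1 to 3, which is kept below. Control replicate 3 was the highest of the 6 libraries and the other controls were the lowest. By mean TPM, miR-182-5p ranked 22nd of all miRNAs. For miR-183-5p, TPM was 2670, 2520 and 2639 with overexpression and 2448, 2343 and 2977 in the controls, again with control replicate 3 highest and the other controls lowest. For miR-96-5p, TPM was 1848, 1613 and 1757 with overexpression and 2222, 2416 and 1993 in the controls. Here the order was turned, with control replicates 1 and 2 highest and control replicate 3 closest to the overexpression group, and the groups did not overlap. The groups did not overlap in TPM for 18.3% of all miRNAs tested, so that such a separation was common in these libraries.

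The passenger strands were rare. miR-182-3p was counted 115, 108 and 105 times with overexpression and 148, 147 and 86 times in the controls, a mean of 13.8 TPM over the 6 libraries. miR-183-3p was counted 69, 68 and 62 times and 90, 92 and 65 times, a mean of 8.70 TPM. The groups overlapped for both when scaled to the library. Counting error alone amounts to 10.4% to 12.7% of a count of miR-183-3p and 8.22% to 10.8% of a count of miR-182-3p, against 0.371% to 0.856% for the guides, so that small changes of the passenger strands were not detectable at this depth. The other strand of MIR96, miR-96-3p, had 10 counts over all libraries, with 0 in overexpression replicate 2, which allows up to 0.354 TPM there.

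In the order of the levels, miR-182-5p was first, miR-183-5p and miR-96-5p followed, and miR-182-3p and miR-183-3p were last. The neighbours miR-183-5p (2590 ± 340 TPM, SD, n = 3) and miR-96-5p (2211 ± 212 TPM, SD, n = 3) overlapped in the controls, where miR-96-5p was above miR-183-5p in replicate 2. In the overexpression group they did not overlap, at 2610 ± 79.3 TPM and 1739 ± 118 TPM (SD, n = 3). Within the cluster, miR-96-5p made up 14.7% ± 0.778 of the counts with overexpression and 18.7% ± 2.85 in the controls (SD, n = 3), miR-182-5p 63.0% ± 1.14 and 59.3% ± 1.47, and miR-183-5p 22.1% ± 0.396 and 21.7% ± 1.42.

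With all 6 libraries, the quasi-likelihood test of edgeR, adjusted by the Benjamini-Hochberg method, called 0 of the 5 members at the threshold of 0.05 (2 were under it unadjusted), and 0% of the 552 miRNAs tested (50 unadjusted), and DESeq2 also called 0 members. The unadjusted values belonged to guides with opposite signs. miR-182-5p was 7731 ± 334 TMM-scaled CPM with overexpression and 6767 ± 370 in the controls (SD, n = 3). This was a fold of 1.14, a log2 fold change of 0.19 (SE 0.076, 95% interval 0.029 to 0.35), with an adjusted p of 0.421 from edgeR. On this scale its groups did not overlap, as for 15.4% of all miRNAs tested. miR-96-5p was 1808 ± 51.8 TMM-scaled CPM with overexpression and 2129 ± 265 in the controls (SD, n = 3), a fold of 0.849. Its log2 fold change was -0.24 (SE 0.098, 95% interval -0.45 to -0.025), with an adjusted p of 0.434 from edgeR, and its groups overlapped on this scale, since control replicate 3 (1833) lay below overexpression replicate 1 (1855).

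For miR-183-5p, the values were 2716 ± 31.1 and 2482 ± 236 TMM-scaled CPM (SD, n = 3), a log2 fold change of 0.13 (SE 0.087, 95% interval -0.058 to 0.32) with an adjusted p of 0.617 from edgeR. The passenger strands had intervals that covered changes in either direction, with log2 fold changes of -0.099 for miR-183-3p (95% interval -0.47 to 0.27) and 0.0047 for miR-182-3p (95% interval -0.35 to 0.36). The median over all miRNAs tested was 0.0038. These values moved with the scaling. With the library size alone, where the median of all miRNAs was -0.11, the log2 fold change was 0.073 for miR-182-5p, 0.011 for miR-183-5p and -0.35 for miR-96-5p (adjusted p = 0.128 from edgeR for the last). In bulk libraries, a change in the level per cell and a change in the number of cells that hold the miRNA cannot be told apart.

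Without control replicate 3, 2 of the 5 members passed the threshold, against 9.91% of the 565 miRNAs then tested. miR-96-5p was lower with overexpression, with a log2 fold change of -0.35 (SE 0.069, 95% interval -0.49 to -0.21, adjusted p = 0.000182 from edgeR). miR-182-5p was higher, with 0.22 (SE 0.062, 95% interval 0.090 to 0.34, adjusted p = 0.0156 from edgeR). miR-183-5p had the sign of miR-182-5p, at 0.19 (SE 0.067), and did not pass (adjusted p = 0.0686 from edgeR). These calls rested on leaving out that library, as 0 members were called when any other library was left out. Only control replicates 1 and 2 remained, which lay close together (median absolute log2 difference 0.049), and the SE of the guides was smaller. Since the library was singled out from these same values, the adjusted p-values of this fit are descriptive only.

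**Figure D1:**
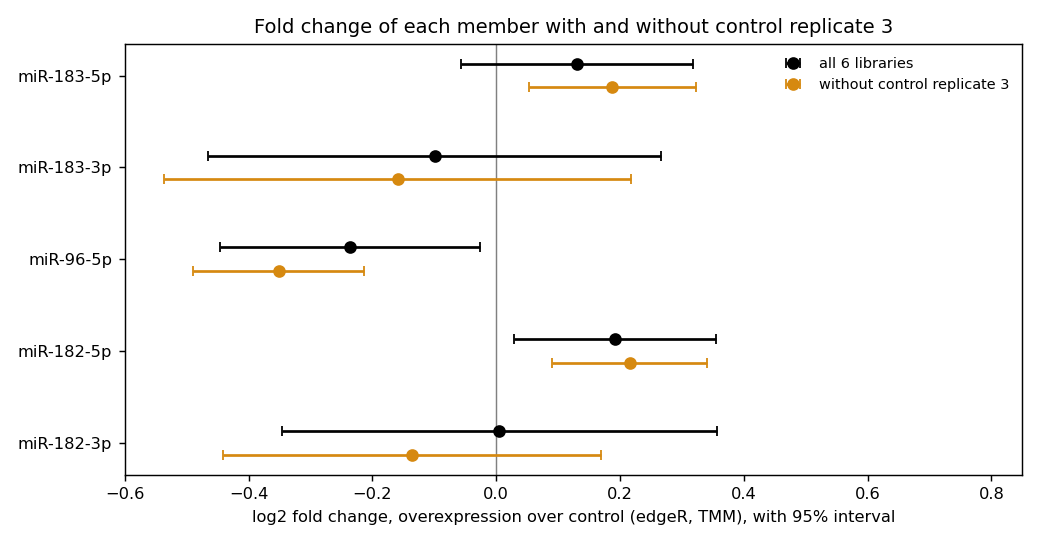
Log2 fold change of each member (overexpression over control, edgeR with TMM factors) with its 95% interval, for all 6 libraries (black) and without control replicate 3 (orange). The guides miR-182-5p and miR-183-5p lie above 0 and miR-96-5p lies below 0 in both fits. With all libraries the interval of miR-183-5p (-0.058 to 0.32) spans 0, as do those of the passenger strands miR-182-3p and miR-183-3p.

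Since the guides come from one transcript, they were also compared with each other within each library, which needs no scaling. The log2 ratio of miR-96-5p to miR-183-5p was -0.53, -0.64 and -0.59 with overexpression and -0.14, 0.044 and -0.58 in the controls. The overexpression libraries lay close together, and control replicate 3 lay among them, apart from the other controls. The group means were -0.59 ± 0.056 and -0.22 ± 0.32 (SD, n = 3), which differ by -0.36 (exact permutation test, two-sided here and below, p = 0.2, adjusted over 5 tests p = 0.667, where 3 libraries against 3 cannot go below 0.1). The difference was -0.54 without control replicate 3 and -0.23 without control replicate 2 (exact p = 0.1 and 0.2, the first the smallest possible). The first is descriptive only, as control replicate 3 was singled out from these same data. The log2 ratio of miR-182-5p to miR-183-5p was 1.48, 1.57 and 1.48 with overexpression and 1.46, 1.50 and 1.39 in the controls. The 6 libraries lay between 1.39 and 1.57, with a difference between the groups of 0.058 (exact permutation test, p = 0.4, adjusted p = 0.667). The difference was 0.027 without control replicate 3, 0.029 without overexpression replicate 2 and 0.083 without control replicate 2 (exact p = 0.8, 0.8 and 0.1, the last the smallest possible).

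The balance of the strands varied more between the controls than between the groups. The log2 ratio of miR-183-5p to miR-183-3p was 8.26, 8.28 and 8.45 with overexpression and 8.19, 7.78 and 8.34 in the controls, a difference of 0.23 (exact permutation test, p = 0.3, adjusted p = 0.667). That of miR-182-5p to miR-182-3p was 9.01, 9.19 and 9.17 and 8.94, 8.61 and 9.33, a difference of 0.17 (exact permutation test, p = 0.6, adjusted p = 0.75), and it was -0.010 without control replicate 2. In the pooled counts, the 5p strand was 521 times as frequent as the 3p strand for MIR182 and 297 times for MIR183. Among the 135 hairpins with both strands tested, these ranked 7th and 13th from the most 5p-sided, where the median size of the imbalance was 3.69 on the log2 scale. For MIR96, 102145 counts of the 5p strand stood against the 10 of the 3p strand. The summed share of the 5 members was 1.18% ± 0.0194 of the counts with overexpression and 1.19% ± 0.0780 in the controls (SD, n = 3; exact permutation test, p = 1). Against the TMM-scaled library size, the overexpression group was instead higher by 0.0876 percentage points (exact permutation test, p = 0.1, the smallest it can give).

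**Figure D2:**
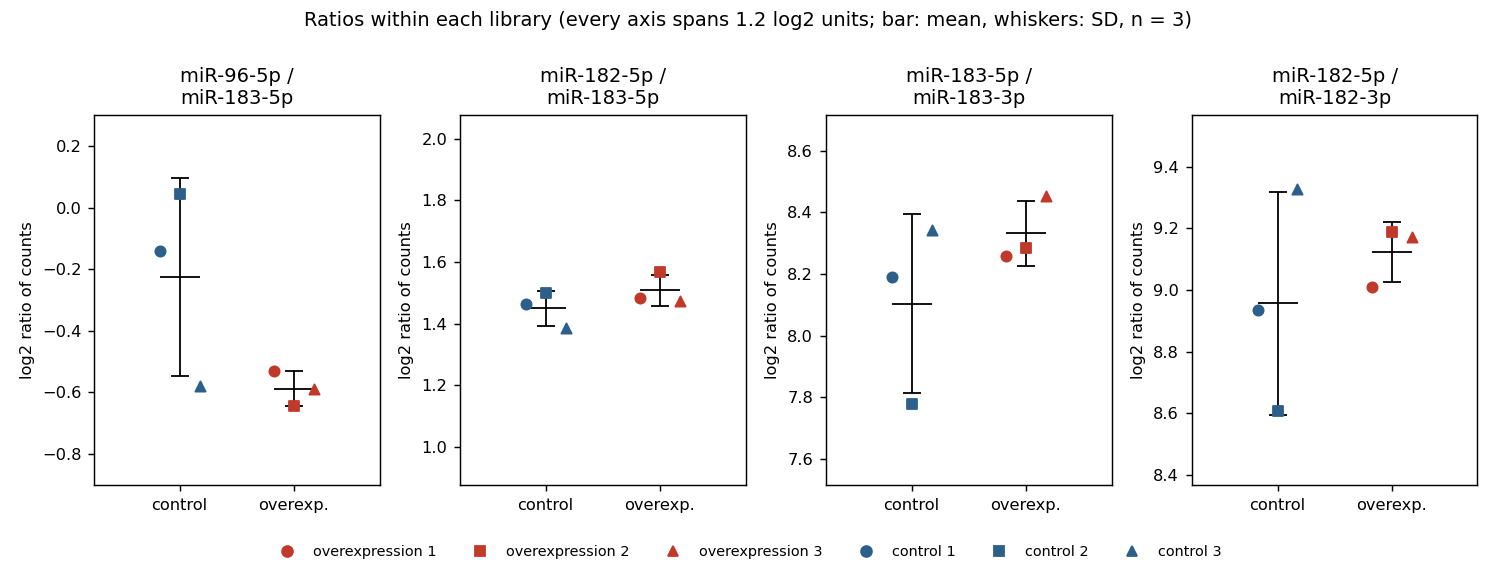
Log2 ratios of counts within each library, for pairs of guides (left) and for the 5p and 3p strands of MIR183 and MIR182 (right), all axes of equal span; bars are group means and whiskers SD (n = 3). The ratio of miR-96-5p to miR-183-5p is -0.14 and 0.044 in control replicates 1 and 2 and between -0.64 and -0.53 in the other 4 libraries.

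The guides were then set beside other hairpins that lie close together, a comparison chosen after the values were seen. Neighbouring hairpins on the same strand, within 10 kb of each other and with a main strand of at least 100 CPM, gave 28 pairs. miRNAs encoded at several loci were left out before the main strand was picked. For this reason miR-194-3p (111 CPM) stood for its hairpin, although miR-194-5p had 13360 CPM. The pairs came from 33 hairpins, some of them in several pairs, so that the pairs were not independent. The size of the difference of their log2 fold changes was 0.43 for miR-182-5p and miR-96-5p, which ranked 4th of the 28, and 0.37 for miR-96-5p and miR-183-5p, which ranked 7th. For miR-182-5p and miR-183-5p, which lie farthest apart in the cluster, it was 0.062 and ranked 24th. The median over the pairs of other hairpins was 0.16. Fold changes of opposite sign were found in 14 of the 28 pairs, as often as equal signs, so that the sign alone does not set the cluster apart. Larger differences than those of the cluster were also found, such as 0.60 for miR-25-3p and miR-106b-5p.

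**Figure D3:**
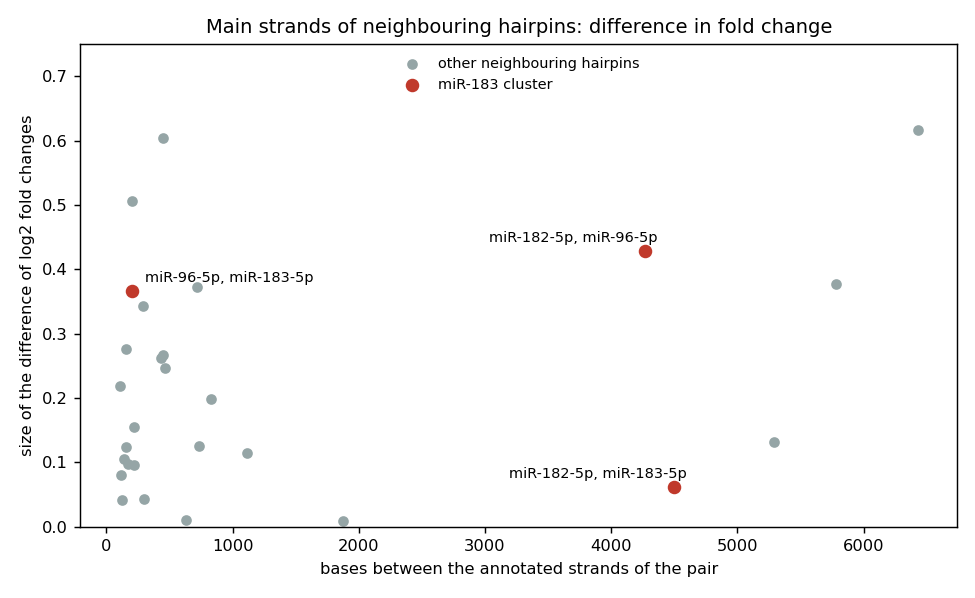
Size of the difference of log2 fold changes between the main strands of neighbouring hairpins, against the bases between those strands, for 28 pairs. The main strand is the more abundant one after strands encoded at several loci were left out. Red points are pairs within the miR-183/96/182 cluster and grey points other pairs. miR-96-5p differs from both other guides, by 0.43 and 0.37, whereas miR-182-5p and miR-183-5p differ by 0.062.

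The pattern over the 6 libraries was described by Pearson's r of log2 TMM-scaled CPM, which rests on 6 points that share their groups and their scaling. Of the 304 other miRNAs of at least 10 CPM, the miRNAs most like the mean of the 3 guides were miR-421 (r = 0.981), let-7f-5p (r = 0.968) and miR-128-3p (r = 0.935). In this mean the guides partly cancel, as miR-96-5p was high where miR-182-5p and miR-183-5p were low. Taken alone, miR-96-5p was the least like miR-183-5p of 306 miRNAs (r = -0.984), and the miRNAs most like miR-96-5p were miR-551b-3p (r = 0.987), miR-18a-5p (r = 0.984) and miR-32-5p (r = 0.98). miR-182-5p ranked 10th in likeness to miR-183-5p (r = 0.882). The comparisons with single guides were chosen after the values were seen.

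Of a list of epithelial miRNAs, the miR-200 family that ZEB1 represses and miR-203a-3p and miR-205-5p, 5 of 7 could be tested. Of these, 0 were called with all libraries or without control replicate 3, beside 0% and 9.91% of all miRNAs tested. Their log2 fold changes lay between -0.13 and 0.033, with a median of -0.046 beside 0.0038 over all miRNAs tested. Without control replicate 3, their median was -0.12, beside -0.0013 over all miRNAs then tested. The summed level of the list was 2076 to 2218 TPM with overexpression and 2340 to 2434 TPM in the controls. The most abundant were miR-200a-3p, at 1228 ± 46.4 TPM with overexpression and 1416 ± 65.0 TPM in the controls, miR-200b-3p, at 491 ± 32.1 and 520 ± 35.6 TPM, and miR-429, at 331 ± 5.30 and 353 ± 11.2 TPM (SD, n = 3). TPM is not corrected for composition. With TMM factors and all libraries, the log2 fold change was -0.092 for miR-200a-3p but slightly above 0 for miR-200b-3p (0.033) and miR-429 (0.024). The seed relative miR-1271-5p was counted 5 times with overexpression and 14 times in the controls and was too rare to be tested, so that almost all reads with this seed were those of miR-96-5p.

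Other miRNAs listed for the same stretch of chromosome 7 were 10 in number, of which 7 were tested and 0 called. Those that RefSeq places there lie up to 1688483 bases from the cluster. The tested miR-129-5p (log2 fold change -0.19) had no position on this chromosome in the sequences used. The log2 fold changes of the 7 lay between -0.44 and 0.18, with a median of -0.11. The most abundant were miR-29a-3p (log2 fold change 0.087), miR-29b-3p (-0.40, adjusted p = 0.295 from edgeR), which also has a second locus, and miR-335-5p (0.18). Without control replicate 3, their median was -0.20, beside -0.0013 over all miRNAs then tested. In that fit, 1 of them was called, beside 9.91% of the 565 miRNAs tested. This was miR-29b-3p, at -0.51 (adjusted p = 8.74e-07 from edgeR, descriptive only, as that library was singled out from these same data).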

How the data were processed

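The data are miRNA sequencing of 6 Huh7 libraries, grouped by their titles. The authors deposited counts of reads per mature miRNA, without normalization, and TPM values, which equalled the count over the library total, scaled to TPM, to within 0.00303. Per the labels, the submitters' processing notes name hg38, TopHat2 2.0.9 and Bowtie. Trimming, the miRNA annotation and how reads with more than 1 match were assigned are not given in the sources used here, and could change the split between similar strands.

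Counts were tested with R 4.3.3 and edgeR 4.0.16 (filterByExpr with a minimum count of 10 and total of 15, TMM factors, quasi-likelihood test, group as the only term, two-sided, Benjamini-Hochberg over all miRNAs tested, threshold 0.05). Ratios used counts with 0.5 added and exact permutation tests over libraries, adjusted over the 4 ratios and the summed share. Alternatives were DESeq2 1.42.0, limma 3.58.1 on log2 of TPM plus 1 or 0.1, other scalings and filters, the replicate block and leaving out each library. The edgeR test was also run on simulated counts, with larger fold changes than those of the members and without a control that stands apart. That run does not bear on changes of the size seen here.

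The members and lists were chosen with earlier results of these data known. Named were the 5 members, miR-96-3p, miRNAs sharing a seed, at most the 3 most abundant of each list, markers and the 3 miRNAs most alike; any other name was chosen with its value in view. All 5 members and 2281 of the 2588 names matched the RefSeq table, which holds no MIR183 hairpin. Replicates differed by more than counting noise (chi-square over degrees of freedom 17.7 to 162), so that none was a copy. The labels do not say whether replicates are separate cultures, so that p-values measure the spread between these libraries, which may be technical. Counting errors and limits cover counting alone.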

Additional observations from a re-analysis of the deposited data

How the results depend on the processing

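Over 15 alternatives each, miR-183-5p and miR-182-5p kept log2 fold changes above 0 (0.011 to 0.19 and 0.073 to 0.22) and miR-96-5p below 0 (-0.35 to -0.17). The calls came without control replicate 3 alone. With each library left out in turn, the number of members called was 0 to 2, the log2 fold change was -0.35 to -0.17 for miR-96-5p, 0.15 to 0.22 for miR-182-5p, 0.065 (without control replicate 2) to 0.19 for miR-183-5p and -0.17 to 0.0013 for miR-183-3p, reversed without control replicate 2. For miR-182-3p, whose value of 0.0047 is far below its error, it was -0.14 to 0.14, and it was also below 0 with DESeq2 (-0.0054), the library size alone (-0.10), the library size without miR-122-5p (-0.068), no filter (-0.015) and limma with 1 or 0.1 added (-0.083 and -0.088). The cause was not tested.

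Between the groups, the log2 ratio of miR-182-5p to miR-182-3p differed by -0.010 to 0.35 with a library left out, and that of miR-183-5p to miR-183-3p by 0.066 to 0.35. The difference in the summed share, -0.0085 percentage points, was 0.0336 without miR-122-5p in the total, 0.0876 of the TMM-scaled library size and -0.0317 to 0.0366 with a library left out.

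The labels do not say whether replicate numbers shared between the groups mark pairs. Same-numbered libraries deviated with r of -0.025, 0.15 and 0.24 over 152 miRNAs. This cannot decide the question, as libraries with different numbers were not compared in this way. The replicate block gave log2 fold changes of 0.13 for miR-183-5p, -0.23 for miR-96-5p and 0.19 for miR-182-5p, and 0 members were called. The depth limits miR-183-3p and miR-182-3p, with at most 92 and 148 counts in a library.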
